A study of Homo sapiens with 24 samples.

Results

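Control mimics are short synthetic RNAs that should match no human transcript. The arrays described here compare DU145 cells that received the control mimic NC2 with DU145 cells that received the control mimic NC1. DU145 is an established human prostate cancer cell line. The members are the 8 total-RNA arrays whose labels name these mimics, 4 with NC2 and 4 with NC1, out of 24 arrays in the series. The other arrays used are 4 from cells given a miR-638 mimic, as a further point of comparison, and 6 from RNA pulled down with biotinylated NC2 or NC1 (3 each). All groups are the same line grown in DMEM with serum. No array of untransfected cells was analysed here, and the dose and time of transfection are not given in the sources used here, so neither control has a baseline of its own. Whether each replicate was its own culture is not stated in the labels. The tests thus measure only how these arrays vary, and that variation may be technical.

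A microRNA mimic is loaded into an Argonaute protein, and the complex represses messenger RNAs that pair with the seed, bases 2 to 8 of the guide strand. A control mimic also has a seed, and can repress transcripts that happen to match it. Double-stranded RNAs can in addition be sensed by RIG-I and MDA5, receptors that start the interferon response to viruses, and by the kinase PKR. These are general properties of microRNA mimics and of double-stranded RNA, and were not measured by the arrays.

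The sequences of NC2 and NC1 are not given in the sources used here, so their seeds could not be set beside the transcripts below. The third mimic carries the sequence of miR-638, shown because it serves as the reference point for which control stands apart; the seed is in capitals. In RefSeq (GRCh38.p14) it lies at chr19:10718419-10718443 on the plus strand.
hsa-miR-638: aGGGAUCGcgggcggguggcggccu

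Each mimic array detected 43.6% to 47.1% of its 47323 probes. The epithelial genes KRT8, KRT19, CDH1 and EPCAM and the filament gene VIM were detected on all 8 control arrays, and KRT18 on 2 of 4 NC2 and 3 of 4 NC1 arrays near background. Of the luminal prostate markers KLK2, KLK3, TMPRSS2, FOLH1, ACP3 and MSMB were detected on 0 arrays, and HOXB13 on 0 of 4 NC2 and 1 of 4 NC1 arrays. Of the markers of fibroblasts and of blood 3 each were tested and 0 changed. Replicates 1 and 2 stood apart from replicates 3 and 4 in every group: 5885 genes (46.5%) differed between these pairs over the control arrays. The labels name no batch, so the pairs are called only by their numbers, and the fit of the controls holds a term for them.

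NC2 and NC1 were compared to ask how far cells given different non-targeting mimics differ. The answer was large for some transcripts: GALNT1, the transferase that starts O-linked glycosylation, was 4.75-fold lower with NC2, and MNAT1, which holds the kinase CDK7 and cyclin H together, was 3.54-fold higher. Of 12646 genes tested, 2082 were higher with NC2 (16.5%) and 2026 lower (16%), together 4108 (32.5%), by limma at a Benjamini-Hochberg adjusted p under 0.05. Differences of at least 2-fold were fewer, 66 higher (0.522%) and 72 lower (0.569%). The median over all genes was 0.01 on the log2 scale. The balance of directions rests on the scaling: with each array scaled by its median, 615 were higher and 2067 lower, and the median of all genes was -0.10, against 50.7% of calls higher in the main setting and 22.9% there. As shares of all genes tested that is 4.86% higher and 16.3% lower under median scaling, against which the list counts below are to be read. The median was taken over all 47323 probes, of which each mimic array detected 43.6% to 47.1%. It thus lay among undetected probes, and this scaling rests on signal near background. The lists were chosen with earlier results of these data known, so their counts describe the lists and are no independent test. In 2058 genes (16.3%) the 4 NC2 arrays did not overlap the 4 NC1 arrays. Without the pair term 937 genes passed (7.41%). Among the 145 genes past the test that were chosen to be named, 60 passed in each of the 24 other settings that gave them a value, and the genes given below with a difference are among these 60, other than interferon list members, SAMD9 and genes beside which a setting is named.

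The lowest transcripts with NC2 came first. GALNT1 (probe ILMN_1803977) was at 6.99, 7.05, 7.15 and 7.52 with NC2, against 9.35, 9.47, 9.57 and 9.32 with NC1, on the log2 scale of normalized intensity. The 4 NC2 arrays lay far below all NC1 arrays, by -2.25 (log2, SE 0.10, adjusted p = 8.88e-13). STRADB, a pseudokinase that helps activate the kinase LKB1, was at 7.69, 7.99, 8.02 and 8.02 with NC2, against 9.58, 9.53, 9.64 and 9.77 with NC1 (difference -1.70, SE 0.08). GLO1, the glyoxalase that detoxifies methylglyoxal, was at 10.76, 10.97, 10.90 and 10.92 with NC2, against 12.69, 12.66, 12.35 and 12.52 with NC1 (difference -1.67, SE 0.07). In each of these genes the groups were separated by more than the whole spread within a group. The largest changes were named only among genes whose groups did not overlap, so separation was a condition of choice. SEC22C, a vesicle trafficking protein, fell by 1.61 and the caveolin CAV2 by 1.57. LAMTOR3, a subunit of the Ragulator complex of the lysosome surface, fell by 1.41. The kinase CDK6, which drives cells out of G1, was at 6.75, 6.99, 7.17 and 6.88 with NC2, against 8.23, 8.46, 8.32 and 8.44 with NC1.

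The other large decreases were the nucleoporin NUP37 (-1.41), the small nucleolar RNA SNORA7B (-1.46), cyclin A2 (CCNA2, -1.38), the oxidoreductase ERO1A of the endoplasmic reticulum (-1.36), the replication licensing inhibitor GMNN (-1.35), the endosomal protein WDFY1 (-1.35) and the calcium-binding protein CALU (-1.34). CAV2 and ERO1A differed much between the pairs of replicates in both groups, and without the pair term their adjusted p was 0.056 and 0.073. The 3 probes of CAV2 ran from -2.02 to -1.57. Those of SEC22C ran from -1.61 to -0.02 and those of LAMTOR3 from -1.41 to -0.19, so not every probe of these genes showed the decrease.

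The highest transcripts with NC2 had smaller differences. MNAT1 (probe ILMN_2083243) was at 9.86, 9.82, 10.15 and 9.90 with NC2, against 7.95, 7.69, 8.38 and 8.42 with NC1 (difference 1.82, SE 0.09, adjusted p = 4.21e-12). PIGN, an enzyme that modifies the GPI anchor of membrane proteins, was at 9.49, 9.57, 9.54 and 9.59 with NC2, against 7.88, 7.93, 8.19 and 8.09 with NC1 (difference 1.52, SE 0.08). RRM2, the small subunit of ribonucleotide reductase, was at 9.03, 9.17, 9.47 and 9.39 with NC2, against 7.63, 7.44, 7.99 and 8.01 with NC1 (difference 1.50, SE 0.08). The groups did not overlap in any of these genes, as the rule for naming the largest changes required. DPYSL3, a cytoskeletal protein of the collapsin response family, averaged 10.86 ± 0.10 with NC2 and 9.36 ± 0.19 with NC1 (SD, n = 4 each), again without overlap. AMMECR1 rose by 1.52, the chromatin-associated protein GLYR1 by 1.45 and the 14-3-3 protein YWHAB by 1.42.

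**Figure D1:**
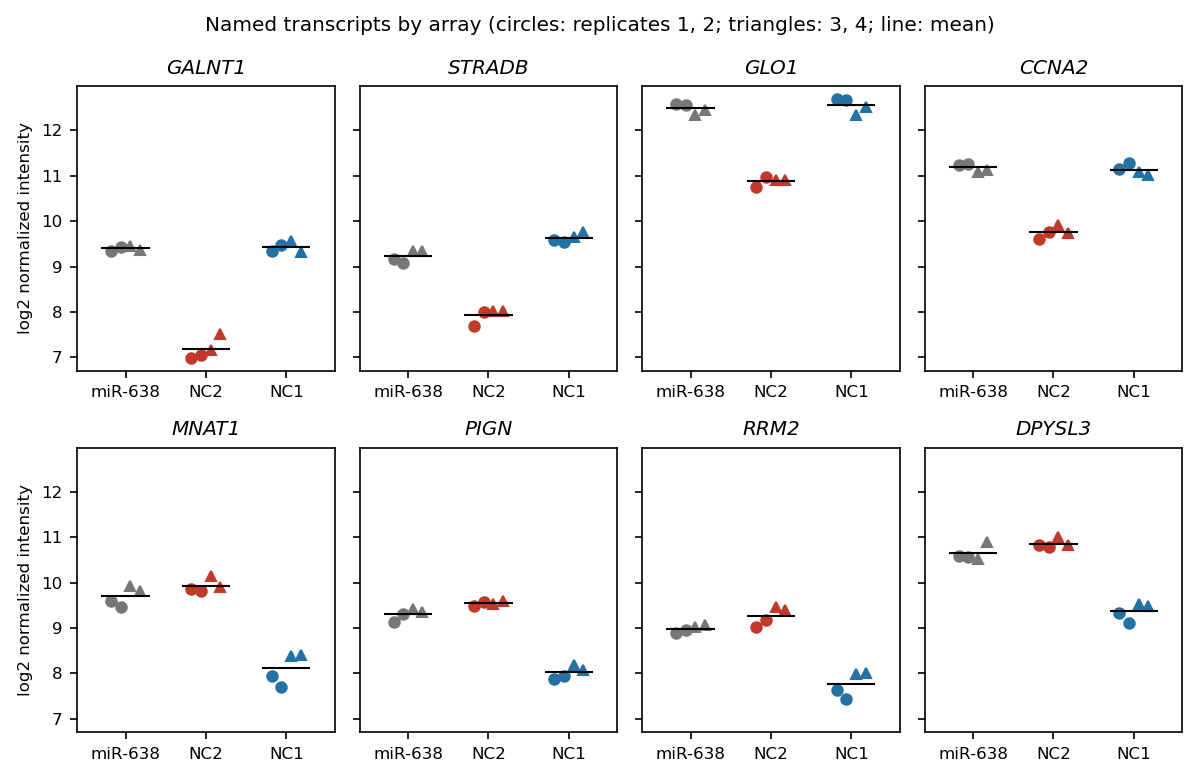
Log2 normalized intensity (y axis) of 8 named transcripts on each mimic array, by group on the x axis (miR-638, NC2, NC1); circles are replicates 1 and 2, triangles 3 and 4, lines the group means. In the upper row NC2 stands apart below, with miR-638 near NC1, and in the lower row NC1 stands apart below, with miR-638 near NC2.

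Further increases were the vesicle fusion ATPase NSF (1.36), the mitochondrial asparaginyl-tRNA synthetase NARS2 (1.36), the RAS relative RRAS2 (1.34), the thiopurine methyltransferase TPMT (1.33) and SFMBT1, a reader of histone methylation (1.33). FA2H, which hydroxylates fatty acids, was detected on 4 of 4 NC2 and 1 of 4 NC1 arrays, so the fitted difference of 1.40 rests on NC1 values mostly at background. CACUL1 was detected on 4 of 4 NC2 and 0 of 4 NC1 arrays, so its level with NC1 is a bound, and it was at least 2.32-fold higher with NC2 (adjusted p of the fit 6.55e-08). The bound sets each NC1 array at the higher of its own value and the lowest signal among detected probes. The 5 probes of NSF ran from 0.24 to 1.59. Those of PIGN were at 0.58 and 1.52, and those of YWHAB at 0.63 and 1.42.

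The miR-638 mimic was used to see which control stood apart. The position of a gene is where the mean of the miR-638 arrays lay between the control means, with 0 at the NC1 mean and 1 at the NC2 mean. Both comparisons share arrays with that of the controls, so positions are a description without a test. Of the 72 genes at least 2-fold lower with NC2, 47 (65.3%) lay at the NC1 end, between -0.25 and 0.25, 23 between the controls, 1 at the NC2 end and 1 beyond NC1. Their median position was 0.13. For these transcripts cells given NC2 had less than cells given either of the other mimics. Of the 66 genes at least 2-fold higher with NC2, 33 (50%) lay at the NC2 end, within 0.25 of the NC2 mean, 25 between, 4 at the NC1 end, 3 beyond NC2 and 1 beyond NC1, with a median of 0.76. For these 33 transcripts it was NC1 that had less than both others.

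**Figure D2:**
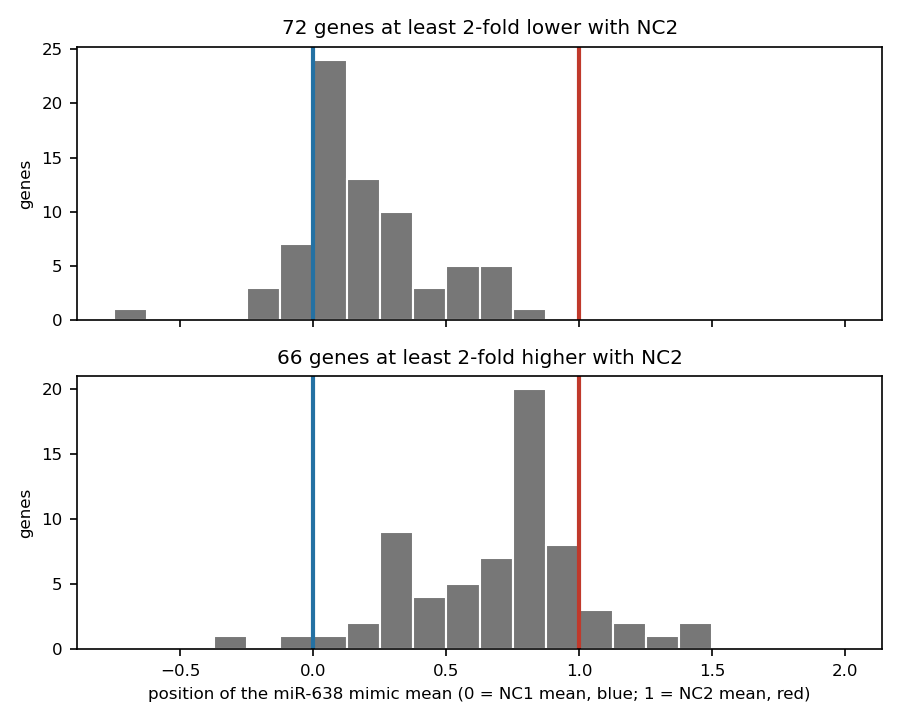
Number of genes (y axis) by the position of the miR-638 mimic mean on the x axis, where 0 is the NC1 mean (blue line) and 1 the NC2 mean (red line), for the 72 genes at least 2-fold lower (top) and the 66 at least 2-fold higher with NC2 (bottom). The lower set gathers near 0 with a median of 0.13 and the higher set near 1 with a median of 0.76.

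GALNT1 was at 9.34, 9.43, 9.46 and 9.37 with the miR-638 mimic, a difference of 2.22 from NC2 (adjusted p = 2.6e-14) and of -0.03 from NC1 (adjusted p = 0.89). CCNA2 was 1.43 above NC2 and 0.05 from NC1, NUP37 1.44 above NC2 and 0.03 from NC1, and CAV2 1.58 above NC2 and 0.02 from NC1. WDFY1, another of the largest decreases, differed by 1.58 from NC2 and 0.23 from NC1. In these genes NC2 stood apart from both other mimics. MNAT1 was 1.59 above NC1 with the miR-638 mimic (adjusted p = 9e-12) and -0.24 from NC2 (adjusted p = 0.04). NARS2 was 1.34 above NC1 and -0.02 from NC2, SFMBT1 1.34 above NC1 and 0.01 from NC2, and RRAS2 1.44 above NC1 and 0.10 from NC2. In these increases NC1 stood apart from both other mimics. Position was among the rules for naming genes, so these values describe the chosen genes and are no further test. CDK6 (position 0.32) and SNORA7B (0.58) lay between, and STRADB, at 0.23, was still -0.40 from NC1 (adjusted p = 5.3e-04).

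Over all 4108 genes called, more lay at the NC1 end than at the NC2 end in both directions, unlike the 2-fold higher set. Of the genes lower with NC2, 765 of 2026 lay at the NC1 end and 247 at the NC2 end, with a median of 0.24. Of those higher with NC2, 628 of 2082 lay at the NC1 end and 388 at the NC2 end, with a median of 0.37. The miR-638 mimic differed from NC2 in 3794 genes (30%) and from NC1 in 1880 (14.9%). Since both counts use the same miR-638 arrays, they are given side by side only.

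Double-stranded RNA sensors and interferon-stimulated genes were the list with the largest share of calls. Of 40 members tested of 47 listed, 31 were higher with NC2, 0 lower and 9 not past, with a median of 0.64, against 16.5% higher and a median of 0.01 over all genes. Under median scaling 28 were higher and 0 lower, and with the values tabulated by the authors 9 and 0. IFIH1, which encodes the sensor MDA5, was at 6.73, 6.86, 9.29 and 9.10 with NC2, against 5.47, 5.05, 7.32 and 7.41 with NC1 (difference 1.68, SE 0.11, adjusted p = 2.37e-10). Within each pair of replicates both NC2 arrays lay above both NC1 arrays, while over all 8 the groups overlapped. PARP9, a partner of the ubiquitin ligase DTX3L, rose by 1.10. SAMD9, an antiviral factor named beside the list members, rose by 1.55. Without the pair term only 1 member of the list passed.

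Most of these genes were far higher in replicates 3 and 4 than in 1 and 2 in every group, and the difference between the controls was larger there too. MX1, a GTPase that traps incoming viruses, was at 8.69, 9.08, 11.99 and 12.15 with miR-638, at 8.59, 8.57, 13.18 and 13.09 with NC2 and at 8.11, 8.02, 10.69 and 10.74 with NC1, in the order of replicates 1 to 4. In replicates 3 and 4 the order was NC2, then miR-638, then NC1 without overlap. OAS2, which makes the messenger that activates RNase L, was at 4.61, 4.67, 10.42 and 9.88 with NC2, against 4.44, 4.36, 7.52 and 7.36 with NC1, and was detected on 2 arrays of each group. IFI27 was at 5.49, 5.65, 9.72 and 9.57 with NC2, against 5.41, 5.10, 6.79 and 6.80 with NC1. ISG15, the ubiquitin-like modifier, was at 9.61, 9.74, 12.81 and 12.67 with NC2, against 9.33, 9.18, 10.77 and 10.99 with NC1. Replicates 1 and 2 were low in both groups for all of these.

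Of the 40 members, 8 were not detected on all 8 control arrays. The median NC2 minus NC1 difference of the list was 0.06 within replicates 1 and 2, where 11 members were higher, and 1.21 within replicates 3 and 4, where 36 were higher. Over the 32 members detected on all 8 it was 0.14 and 1.06, with 11 and 29 higher. Over all genes 14.2% were higher and 13.5% lower in replicates 1 and 2, and 8.1% and 7.5% in replicates 3 and 4. A test of the difference between the pairs (limma, group by pair) was passed by 107 of 12646 genes (0.846%), 85 with a larger difference in replicates 3 and 4 (0.672%) and 22 with a smaller one (0.174%). The count was 1 with the authors' value table, 26 under median scaling, 44 with no detection filter and 52, 47, 57 and 67 without NC1 replicate 1, 2, 3 or 4, and it was 69 and 58 without NC2 replicate 3 or 4. Of the 85, 26 belonged to this list, and so 26 of its 40 members passed, or 20 of the 32 detected on all 8 arrays. The NC2 minus NC1 difference was larger by 2.54 for IFI27 (adjusted p = 5.6e-08) and by 1.90 for MX1. OAS2 and MX2 were at background in replicates 1 and 2 of both groups, so the size of their change between the pairs has no measured base. For IFIH1 it was 1.54 and 1.83 in the pairs and the change did not pass (0.29, adjusted p = 0.67). The labels do not say what set the pairs apart, so what differed between them was not tested. Outside the list the ribosomal protein RPS23 had a smaller difference in replicates 3 and 4 (0.42, against 1.43 in replicates 1 and 2; adjusted p of the change 1.3e-05), as did NSF (-0.59, adjusted p = 0.013).

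**Figure D3:**
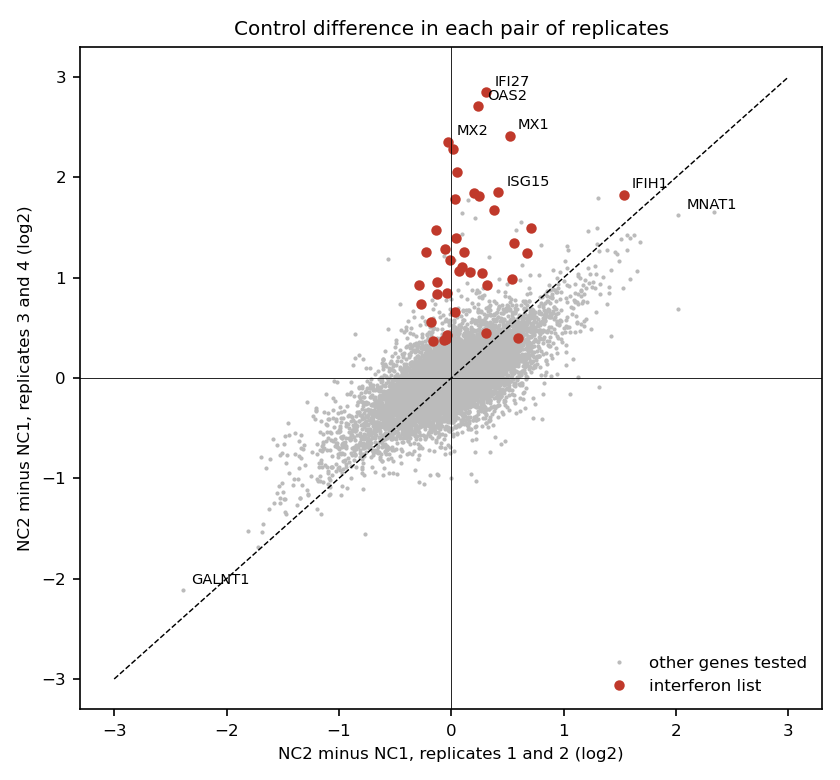
NC2 minus NC1 difference (log2) in replicates 1 and 2 (x axis) and in replicates 3 and 4 (y axis) for every gene tested, with the 40 interferon list members in red and the dashed line at equal values. Most red points lie well above the line, with a list median of 0.06 on the x axis and 1.21 on the y axis, while GALNT1 and MNAT1 lie near it.

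Set on the mean of the 12 mimic arrays, the median over the list was -0.62, -0.65, 0.81 and 0.82 with miR-638, -0.78, -0.80, 1.51 and 1.40 with NC2 and -1.04, -1.11, 0.15 and 0.21 with NC1, in the order of replicates 1 to 4. In replicates 1 and 2 the miR-638 arrays were the highest and in replicates 3 and 4 the NC2 arrays, and the NC1 arrays were the lowest in both. Of the 31 members called, 19 had the miR-638 mimic between the controls, 8 at the NC2 end and 3 at the NC1 end. Of all genes called higher with NC2, 36.8% lay between, 18.6% at the NC2 end and 30.2% at the NC1 end. With miR-638, 18 of the 40 were above NC1 (over all genes 7.85%, and 7.01% below) and 10 below NC2 (over all genes 15.2%, and 14.8% above). IFIH1 with miR-638 was -0.97 from NC2 (adjusted p = 2.6e-06) and 0.72 from NC1 (adjusted p = 2.1e-04).

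**Figure D4:**
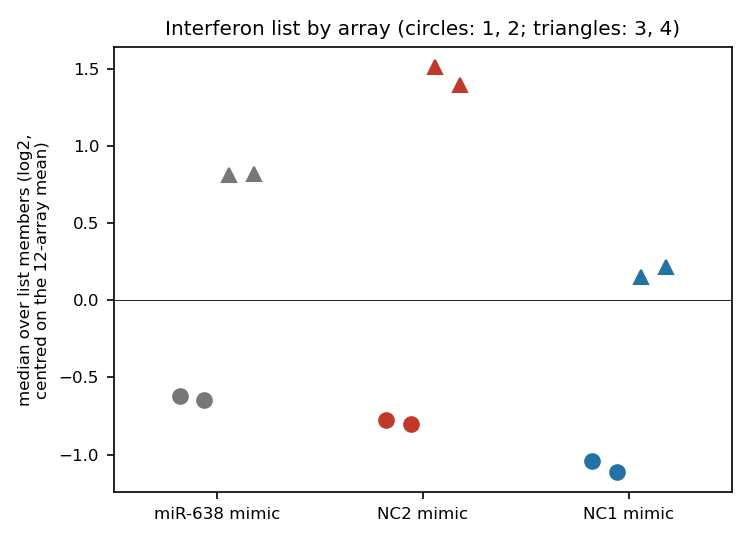
Median over the 40 interferon list members of the log2 value, centred on each gene's mean over the 12 mimic arrays (y axis), for each array by group (x axis); circles are replicates 1 and 2, triangles 3 and 4. Triangles lie above circles in each group, and the NC2 triangles, at 1.51 and 1.40, are the highest.

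Interferon-stimulated genes are switched on by the ISGF3 complex through a promoter element read here as GAAANNGAAA, on either strand (TTTCNNTTTC). Matches may overlap. In the RefSeq promoters (GRCh38.p14, 250 bases before to 50 after the start), it was found in 21 of 32 promoters of tested list members (65.6%), in 16 of the 25 of members higher with NC2 (64%), and in 996 of 27305 promoters in all (3.65%). Among genes tested it was in 290 of 10112 (2.87%), and among those at least 2-fold lower with NC2 in 1 of 58 (1.72%). The list was chosen for its known regulation, so its share describes the list and not the oligonucleotides. The stretch just before the start is shown for 3 members named above, 5′ to 3′ on the strand of the gene, with the matches in capitals. IFI27 lies at chr14:94110561-94110735 on the plus strand, IFIH1 at chr2:162318685-162318859 on the minus strand and ISG15 at chr1:1013322-1013496 on the plus strand. IFIH1 had 3 matches in this stretch and the others 2 each.
IFI27: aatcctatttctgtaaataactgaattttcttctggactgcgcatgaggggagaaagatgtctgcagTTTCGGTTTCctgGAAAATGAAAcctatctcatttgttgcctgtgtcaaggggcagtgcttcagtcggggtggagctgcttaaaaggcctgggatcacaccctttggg
IFIH1: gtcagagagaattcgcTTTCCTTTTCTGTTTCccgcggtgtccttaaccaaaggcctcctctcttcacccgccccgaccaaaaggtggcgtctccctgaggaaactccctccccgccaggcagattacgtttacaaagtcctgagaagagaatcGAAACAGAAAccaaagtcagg
ISG15: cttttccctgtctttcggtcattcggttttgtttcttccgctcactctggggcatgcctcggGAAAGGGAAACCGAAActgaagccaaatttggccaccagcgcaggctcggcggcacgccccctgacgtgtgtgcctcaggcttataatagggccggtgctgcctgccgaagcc

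Genes of mitosis were lower with NC2: 19 of 46 fell, 2 rose and 25 did not pass, with a median of -0.14, against 16% lower over all genes. TOP2A, the topoisomerase that untangles chromosomes, was at 11.35 ± 0.19 with NC2 and 12.29 ± 0.15 with NC1 (log2, SD, n = 4 each; difference -0.94, SE 0.06). The centrosomal kinase NEK2 fell by 0.73 and CCNA2 by 1.38. KIF4A, a motor of the mitotic spindle, went the other way (1.13, SE 0.10). In the DNA replication and S phase list 14 of 41 fell, 3 rose and 24 did not pass (median -0.15). The clamp loader subunit RFC5 fell by 0.57 and the replicative helicase subunit GINS2 by 0.57, while RRM2 rose by 1.50. In both lists more members were lower than higher under median scaling too (21 and 1 for mitosis, 15 and 1 for S phase), and 7 and 1 of the mitosis list passed without the pair term. Fewer cells in a phase of the cycle and less RNA per cell cannot be told apart in bulk RNA. The G1 cyclins, kinases and inhibitors had 8 higher and 4 lower of 24 (0 and 5 under median scaling), CDK6 being the largest decrease named.

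The miR-638 mimic lay near NC1 for the mitotic genes named as lower: TOP2A was 1.13 above NC2 and 0.19 from NC1 (adjusted p = 0.058), and NEK2 0.81 above NC2 and 0.07 from NC1. For KIF4A it lay near NC2, 0.97 above NC1 and -0.16 from NC2 (adjusted p = 0.19). Over the list, 8 called members had the miR-638 mimic at the NC1 end, 8 between the controls and 4 at the NC2 end. Of all genes called lower with NC2, 37.8% lay at the NC1 end, 32.9% between and 12.2% at the NC2 end. Members of this list separated NC2 or NC1 from both other mimics, or neither, depending on the gene, as did genes outside it.

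In the main setting, calls higher with NC2 outnumbered lower ones in the respiratory, proteasome, lysosomal and GPI anchor lists. These higher calls were fewer under median scaling. The respiratory chain and ATP synthase had 14 of 43 higher and 0 lower (median 0.11), against 2 and 1 under median scaling, beside 16.5% higher and 16% lower over all genes in the main setting and 4.86% and 16.3% under median scaling. The complex I subunits NDUFA10 and NDUFB5 rose by 0.94 (SE 0.10) and 0.79 (SE 0.06). Proteasome subunits had 13 higher and 1 lower of 34, against 1 and 2 under median scaling; the catalytic subunit PSMB5 was the one lower, by -0.40. Lysosomal genes had 11 higher and 3 lower of 33, against 3 and 4. Among them ATP6V1A, a subunit of the proton pump, was at 12.05 ± 0.29 with NC2 and 10.89 ± 0.08 with NC1 (SD, n = 4 each), while the protease CTSB fell by 0.33. GPI anchor genes had 9 higher and 1 lower of 30 (3 and 2 under median scaling), with PIGN at 1.52 and PIGA, which starts the anchor, at 0.55. PIGN is also among the largest increases named above, and the lists were chosen with earlier results known. The scaling moved the median of all genes by about the size of these list medians, while the single genes named here passed under both scalings. Under median scaling the respiratory, proteasome, lysosomal and GPI anchor medians were -0.03, -0.04, -0.04 and -0.02, each above the -0.10 of all genes.

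Of 19 members of the microRNA machinery tested, 2 rose, 6 fell and 11 did not pass, with a median of -0.12 (1 and 7 under median scaling), beside 16.5% higher and 16% lower over all genes. AGO2, the Argonaute that cleaves matched targets, was at 9.75 ± 0.32 with NC2 and 10.54 ± 0.41 with NC1 (SD, n = 4 each; difference -0.79, SE 0.07, adjusted p = 4.06e-08, and 0.059 without the pair term). The miR-638 mimic lay between, 0.42 above NC2 and -0.36 from NC1. XRN1, the exonuclease that degrades decapped messengers, rose by 0.51.

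Lists of reported targets of 3 endogenous microRNA families were also counted, beside the same 16.5% higher and 16% lower over all genes. Targets of miR-21 had 1 higher and 7 lower of 15 (median -0.27), also 1 and 7 under median scaling. Targets of the miR-17 family had 9 higher and 8 lower of 26 (0 and 6 under median scaling), STAT3, a transcription factor of cytokine signalling, falling by 0.71 and the stress gene TP53INP1 by 1.09. Targets of let-7 had 1 higher and 3 lower of 16, and PLAGL2, a zinc finger factor, fell by 1.20 (SE 0.08).

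Signalling lists are likewise given beside 16.5% higher and 16% lower over all genes, and several lay near it. TGF-beta genes had 2 higher and 7 lower of 23, with the receptor TGFBR2 lower by -0.41, and the PI3K, AKT and mTOR list 2 and 8 of 29, STRADB among the lower. RAS and MAP kinase genes had 9 higher and 4 lower of 24 (1 and 4 under median scaling), RRAS2 being the largest increase named. NF-kB genes had 4 higher and 0 lower of 13 (2 and 0 under median scaling). NFKB1, which encodes the p50 subunit, rose by 0.50 and IRAK2, a kinase of Toll-like receptor signalling, by 0.54, and for both the miR-638 mimic lay at the NC1 end. Immediate early and YAP targets had 7 higher and 4 lower of 25 (2 and 5 under median scaling), with the phosphatase DUSP5 higher by 0.53 and the receptor kinase AXL lower by -0.85.

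The remaining lists were mixed, beside 16.5% higher and 16% lower over all genes. O-glycosylation had 5 higher and 4 lower of 16 with GALNT1 among the lower, and N-glycosylation 7 and 7 of 34, with the glucosyltransferase ALG6 at 0.57 and the oligosaccharyltransferase STT3B at -0.50. The unfolded protein list had 5 higher and 6 lower of 29, with its sensor ATF6 at 0.56 and the factor XBP1 at -0.50. Glyoxalase, glutathione and NRF2 genes had 2 higher and 8 lower of 30, GSTP1 falling by 0.36. Hypoxia and glycolysis genes had 8 higher and 4 lower of 34, with ANKRD37 at 0.89, PFKFB4 at 0.88 and the mitophagy receptor BNIP3L at 0.50. Targets of p53 had 3 and 6 of 23, CCNG1, a cyclin induced by p53, falling by 0.98. Splicing factors had 2 higher and 10 lower of 31, with SRSF1 lower by -0.57. The BCL2 family had 6 and 4 of 27, with BID, which links caspases to mitochondria, lower by -0.57. Histones had 6 and 2 of 27, with H2AC11 lower by -0.72. Under median scaling the balance moved to the lower side, as it did over all genes (4.86% higher and 16.3% lower). It was 2 higher and 7 lower for N-glycosylation, 1 and 8 for the unfolded protein list and 2 and 4 for the BCL2 family.

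The other lists are given beside the same 16.5% higher and 16% lower over all genes. Cholesterol and fatty acid synthesis had 7 higher and 6 lower of 29, ribosomal proteins 5 and 5 of 50 and actin and SRF targets 4 and 4 of 23. Keratins and mesenchymal genes had 4 and 3 of 19 and the TFIIH list with the CDK-activating kinase 3 and 0 of 10. Housekeeping references had 4 higher and 1 lower of 12. RPS23 rose by 0.93 and RPS7 fell by 0.51 among the ribosomal proteins. Under median scaling the ribosomal proteins had 1 higher and 15 lower, cholesterol synthesis 0 and 6, actin 0 and 6, keratins 0 and 4, histones 0 and 4, TFIIH 1 and 0 and housekeeping references 1 and 3. Over all genes 4.86% were higher and 16.3% lower under that scaling.

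RNA pulled down with the biotinylated controls gave a readout on other arrays. The deposited signal table and the authors' value table exchange the 6 columns named NC2 and NC1 pulldown, so the direction is not settled: signs below follow the signal table and all turn with the names of the value table. By the names of that signal table, 91 of 13101 genes were higher in the NC2 pulldown (0.695%) and 10 lower (0.0763%), 101 in all (0.771%). Arrays of the same number deviated together, and with the replicate number as a block 332 were higher (2.53%) and 249 lower (1.9%), 581 in all (4.43%). The count without the block rests on single arrays: it was 3 without NC2 pulldown replicate 3, 11 and 19 without NC1 pulldown replicates 3 and 1, and 42 and 43 without NC2 pulldown replicates 2 and 1.

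By the names of the signal table, transcripts lower after the NC2 mimic tended to be higher in the NC2 pulldown. Of 71 genes at least 2-fold lower and measured in both, 59 (83.1%) were above 0 in the pulldown, against 48.9% of all 12265 genes; by the names of the value table it would be 12 of 71. For the 46 of them with the miR-638 mimic at the NC1 end it was 42 (91.3%), or 4 with the other names, with a median of 0.51, and 10 were called higher and 0 lower (28 and 0 with the block). The 33 genes at least 2-fold higher with the miR-638 mimic at the NC2 end leaned the other way, 7 (21.2%) above 0 and 26 below, with a median of -0.21, and 1 was called higher and 1 lower (2 and 6 with the block). Over the 4069 genes called in the mimic experiment and measured in both, the differences correlated at r = -0.30, a value across genes, which are not independent replicates. The input of the pulldown was not analysed here, so the level of a transcript in the cells and its recovery cannot be told apart.

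GALNT1 was at 9.63, 9.83 and 9.75 in the NC2 pulldown, against 7.74, 7.87 and 7.71 in the NC1 pulldown (difference 1.96, SE 0.13, adjusted p = 0.00159), the reverse of its order in total RNA. ERO1A was at 10.03, 9.87 and 9.98 in the NC2 pulldown, against 8.96, 8.70 and 8.83 in the NC1 pulldown. LAMTOR3 differed by 1.06, STRADB by 0.85 and CDK6 by 0.82, all past the test. DPYSL3, which was higher with the NC2 mimic, differed by -0.97 between the NC2 and NC1 pulldowns (SE 0.09, adjusted p = 0.00528). In each of these genes the 3 arrays of one pulldown lay outside those of the other. Genes named for opposite signs had to pass the test in both readouts, so their calls and signs here are no further test.

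The interferon list had the same sign in both readouts by the names of the signal table. All 40 members were measured, 19 were higher in the NC2 pulldown and 0 lower (33 and 0 with the block), with a median of 0.96. OAS2 was at 9.73, 9.62 and 9.96 in the NC2 pulldown, against 7.91, 7.39 and 7.48 in the NC1 pulldown. MX1 was at 12.87, 12.93 and 12.98 in the NC2 pulldown, against 11.33, 11.47 and 11.06 in the NC1 pulldown. IFI27 differed by 1.99, MX2 by 1.30 and ISG15 by 1.10. SAMD9, named beside the list members above, differed by 0.92. Naming also drew on the largest same-sign differences past the test in both readouts, so these single genes are no further test. By the names of the value table, these genes would be higher in the NC1 pulldown while lower with the NC1 mimic, and GALNT1 lower with NC2 in both.

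**Figure D5:**
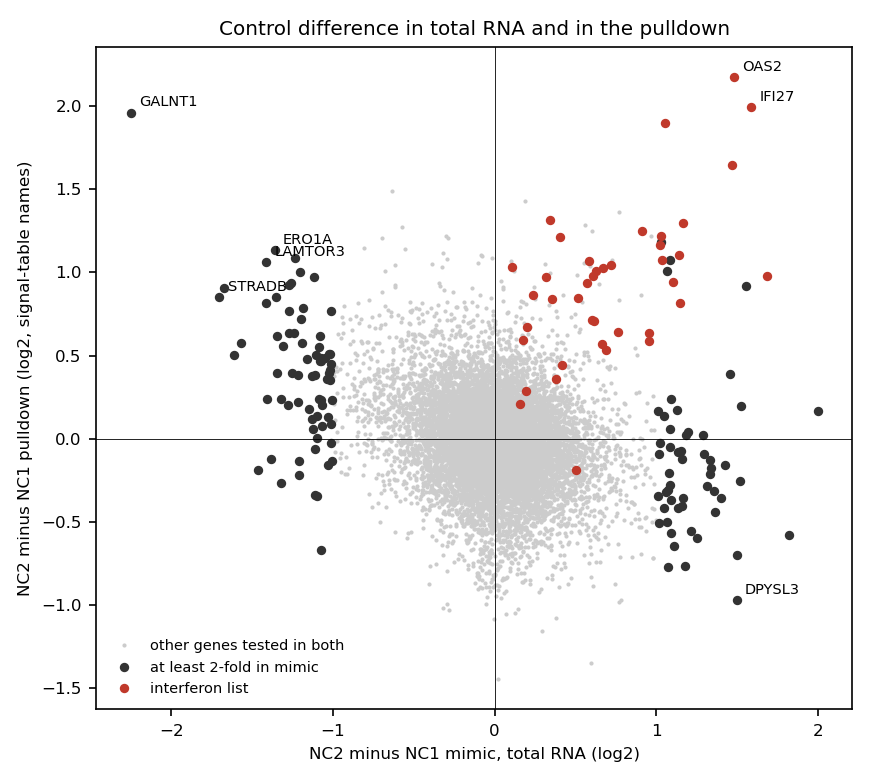
NC2 minus NC1 difference in total RNA after the mimics (x axis, log2) and in the pulldown by the names of the signal table (y axis, log2) for genes tested in both; black points differed at least 2-fold in total RNA and red points are the interferon list. GALNT1 and ERO1A lie at the upper left and DPYSL3 at the lower right, while OAS2 and IFI27 lie at the upper right.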

How the data were processed

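Per the labels, total RNA was labelled with biotin using an Illumina kit. The design text names another array maker, while the probe identifiers are those of Illumina. The authors deposited a background-subtracted intensity per probe, not normalized between arrays, with a detection p-value for each; their software is not given in the sources used here. The authors also deposited a value table on a log2 scale with a floor of 4. By name, 18 of 24 columns matched between these tables and 6, the control pulldowns, were exchanged.

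Signals were normalized with neqc (limma 3.58.1, R 4.3.3; background from detection p-values, offset 16, quantile normalization, log2) over the 12 mimic arrays, and over the 12 pulldown arrays. A probe entered the tests if its detection p was below 0.05 on 4 or more mimic arrays (3 or more for the pulldown), and a gene was represented by its probe with the highest mean. In the platform annotation 30113 probes have 1 symbol, 8 have several and 17202 are not listed. Of 5447 kept probes without a single name, 910 (16.7%) differed between the controls and are not reported by name, nor are 51 placeholder names. The probes of 185 called genes differed in sign, and the report names none of these genes.

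The controls were fitted with limma (lmFit, eBayes with trend) on 8 arrays with a term for the pair of replicates, the miR-638 contrasts on 12 arrays with the same term, and the pulldown on 6 arrays without a term. Tests were two-sided with Benjamini-Hochberg adjustment over all genes. Deviations of same-numbered NC2 and NC1 mimic arrays correlated at 0.68 to 0.72, but those of differently numbered arrays of the same pair of replicates as highly, at 0.68 to 0.71. The difference between replicates 1 and 2, and that between replicates 3 and 4, correlated between the controls at 0.0007 and 0.09, so beyond the shift between the pairs the numbers were not found to pair the mimic arrays. Deviations of same-numbered pulldown arrays correlated at 0.12, 0.56 and 0.42, each over 0.1, and the blocked counts are given for them; this pairing comes from the correlation and not from the labels. The fit was tested on simulated data. Arrays give no counts, and their number limits the precision.

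Named genes are the 14 largest increases and 14 largest decreases whose groups did not overlap, up to 4 of smallest p from each of 35 lists, the 6 largest at each end of the miR-638 position, and the 6 largest of opposite and of same sign in the pulldown; 147 in all. The members and lists were chosen with earlier results of these data known. Alternatives were other scalings, detection filters and terms, the mean of a gene's probes and leaving out each array. Median scaling used the median of all 47323 probes of an array, detected or not. Plots used matplotlib 3.10.9 in Python 3.11.15.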

Additional observations from a re-analysis of the deposited data

Results flagged for a closer look

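The NC2 minus NC1 difference itself differed between replicates 1 and 2 and replicates 3 and 4 in 107 genes, by the limma test of group by pair, as described above for the interferon list. Groups of 4 arrays were tested for a single outlying array, 2 for each named gene, and those of mean signal and number of detected probes. Dixon's critical share of the range is passed by chance about 1 in 20 times for 4 values of a single normal distribution. These arrays fell in pairs of replicates and the genes were chosen, so that rate does not apply here. In 12 of 298 groups the gap of a single array to its nearest neighbour exceeded this share. With NC2 these were STRADB, where replicate 1 was low (gap 0.904), STT3B with replicate 2 low (0.911), SRSF1 with replicate 1 low (0.876), PLAGL2 (0.871) and PSMB5 (0.843) with replicate 2 high, ACTA2 with replicate 1 high (0.853), DPYSL3 with replicate 3 high (0.836) and GCNT2 with replicate 2 low (0.831). With NC1 they were TP53INP1 with replicate 4 low (0.921), CDK7 with replicate 2 high (0.887), CACUL1 with replicate 4 high (0.877) and PSMB5 with replicate 3 low (0.859). ACTA2, CDK7 and GCNT2 did not pass the comparison of the controls under median scaling.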

How the results depend on the processing

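With median scaling 2682 genes passed between the controls, 2 respiratory genes rose, 26 genes differed between pairs, 918 differed between miR-638 and NC1, 41.13% of called genes had miR-638 at the NC1 end and 53 passed in the pulldown. With the authors' value table these were 2126, 4, 1, 878, 36.64% and 1, with 9 interferon genes, 11 mitotic genes and 2352 genes between miR-638 and NC2. Without the pair term 937 genes, 1 interferon, 7 mitotic and 4 respiratory genes passed, 871 between miR-638 and NC2 and 356 between miR-638 and NC1. Without a detection filter 44 genes differed between pairs. Replicates 1 and 2 alone gave 11 interferon and 8 respiratory genes, and MX2 at -0.0298 (log2, adjusted p = 0.946). Replicates 3 and 4 alone gave 1973 genes, 11 mitotic, 6 respiratory, 1689 between miR-638 and NC2 and 645 between miR-638 and NC1. The replicate block gave 3864 genes in total RNA and 581 in the pulldown, and all 12 pulldown arrays together 614. Leaving out 1 array gave 3235 to 4108 genes, 24 to 34 interferon, 15 to 19 mitotic and 8 to 14 respiratory genes, 47 to 126 differing between pairs, 3039 to 3743 between miR-638 and NC2, 1331 to 2014 between miR-638 and NC1 and 3 to 126 in the pulldown; 29.21% to 36.37% of called genes and 62.5% to 74.07% of the 2-fold lower genes had miR-638 at the NC1 end, and 41.67% to 59.09% of the 2-fold higher genes at the NC2 end. The causes were not tested.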
